A study of Homo sapiens with 24 samples.

Results

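Tubulins are the subunits of microtubules, and 10 of their genes were followed here in ARPE-19 cells, an established human line derived from the retinal pigment epithelium (RPE). The 10 genes are the β-tubulins TUBB, TUBB2A, TUBB2B, TUBB3, TUBB4B and TUBB6 and the α-tubulins TUBA1A, TUBA1B, TUBA1C and TUBA4A, out of 24053 Ensembl identifiers in the expression table. The set was chosen by name around TUBB3, which was picked from its own levels in these samples, so the differences of TUBB3 between groups are given as a description with no p-value. Poly(A) RNA was sequenced in 4 groups of cells: scramble siRNA, Pink1 siRNA, Nrf2 siRNA, and both siRNAs together (called double siRNA here; the sample labels write Nrf2 and Pink1 double knockout, and knockout also for the single siRNAs). Each group had 3 biological replicates with 2 technical replicates each, which were averaged to give 12 values per gene. PINK1 is a mitochondrial kinase that marks damaged mitochondria for removal, and NRF2, encoded by NFE2L2, is a transcription factor of the antioxidant response. The protocol given for all samples describes a scratch wound in a nearly confluent layer followed by fresh medium, and the siRNA sequences and the time after transfection were not given in the sources used here. All groups are 1 cell line, and the labels do not say whether biological replicates were separate transfections, so p-values measure the spread between these samples only.

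The siRNA targets were lower where the labels place them. PINK1 was at 55.8 ± 1.93 TPM (a transcript level per gene length, scaled to a fixed total per sample; SD, n = 3) in scramble, 14.6 ± 3.22 with Pink1 siRNA and 18.7 ± 2.93 with both. NFE2L2 was at 80.7 ± 7.69 TPM in scramble, 20.0 ± 7.72 with Nrf2 siRNA and 28.9 ± 6.16 with both. With Pink1 siRNA, NFE2L2 differed from scramble by -0.23 (SE 0.25) on the log2(TPM + 1) scale. Its samples all lay below scramble there, and 25.0% of all genes did not overlap in that comparison. PINK1 differed by 0.03 (SE 0.17) with Nrf2 siRNA, and the samples overlapped. Because TPM is scaled to a fixed total, the read depth is unknown. One identifier, ENSG00000226958, took 15.5% to 41.4% of all TPM in a sample. The lowest share was in double siRNA replicate 3 and the highest in double siRNA replicate 1, so every other gene's TPM depends in part on it, and levels are also given with it removed. Of 14 RPE markers, 13 were in the table. Only 1 of these, RPE65, the retinoid isomerase that defines mature RPE, was under 1 TPM in every sample. The levels of 11 were high enough for testing. In bulk RNA, fewer cells of a type and less RNA per cell cannot be told apart.

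An α- and a β-tubulin form the dimer that polymerises into microtubules, which carry organelles, including mitochondria, and build the mitotic spindle. Isotypes are nearly identical in their bodies and differ mainly in the acidic C-terminal tail, where enzymes add glutamates and where motors and other proteins bind. TUBB3 is used widely as a marker of neurons and is also made in many cultured and tumour cells. Cells hold tubulin mRNA in check by autoregulation: TTC5 reads the first amino acids of nascent tubulin and recruits SCAPER and the CCR4-NOT deadenylase, which degrades the mRNA.

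The ends of the coding sequences show what separates the isotypes. The last 90 coding bases of each β-tubulin are given from GENCODE 29 transcripts, 5′ to 3′, with the codons of the variable tail in capitals, from just after a stretch that differs among the 6 genes only in the last base of codons up to the stop codon.
TUBB: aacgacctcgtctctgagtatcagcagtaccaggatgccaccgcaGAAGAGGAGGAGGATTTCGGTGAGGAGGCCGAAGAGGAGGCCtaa
TUBB2A: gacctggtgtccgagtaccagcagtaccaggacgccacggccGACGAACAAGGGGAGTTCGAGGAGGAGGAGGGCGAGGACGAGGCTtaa
TUBB2B: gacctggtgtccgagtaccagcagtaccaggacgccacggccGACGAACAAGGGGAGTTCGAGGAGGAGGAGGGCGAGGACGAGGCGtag
TUBB3: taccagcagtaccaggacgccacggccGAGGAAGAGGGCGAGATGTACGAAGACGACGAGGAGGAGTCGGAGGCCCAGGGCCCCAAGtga
TUBB4B: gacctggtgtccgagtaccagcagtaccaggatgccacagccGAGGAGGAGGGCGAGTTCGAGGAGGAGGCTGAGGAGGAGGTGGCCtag
TUBB6: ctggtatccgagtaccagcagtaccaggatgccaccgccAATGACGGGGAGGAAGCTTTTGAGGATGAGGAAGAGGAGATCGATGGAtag
The tail of TUBB3 had 20 codons, against 14 in TUBB, 15 in TUBB2A, TUBB2B and TUBB4B, and 16 in TUBB6, and it ended in a lysine codon (AAG) where TUBB, TUBB2A, TUBB2B and TUBB4B ended in an alanine codon. TUBB2A and TUBB2B differed little: their coding sequences were 98.2% identical. TUBB3 was 81.6% identical to TUBB and 87.8% to TUBB2A.

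TUBA1C and TUBA4A are shown by their last 36 coding bases, because the last amino acid is the one that the detyrosination cycle removes and that the ligase TTL restores. The last sense codon is in capitals.
TUBA1C: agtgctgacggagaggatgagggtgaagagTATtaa
TUBA4A: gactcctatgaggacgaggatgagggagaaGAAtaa
TUBA1C encodes a final tyrosine (TAT), and TUBA4A encodes a final glutamate (GAA), so TUBA4A protein is made without the tyrosine. TUBA1A and TUBA1B were 97.2% identical over their coding sequences, and TUBA4A was 84.4% identical to TUBA1A. The first 12 coding bases, which carry the signal that TTC5 reads, were ATGAGGGAAATC in TUBB and TUBB4B, ATGAGGGAGATC in TUBB3 and TUBB6, and ATGCGTGAGTGC in TUBA1A, TUBA1B and TUBA1C.

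This likeness bears on the counting. Of the windows of 126 bases in one transcript of each gene, as long as one sequenced read, 52.0% in TUBB2A and 42.7% in TUBB2B also occur in another gene's transcripts, mostly in each other's. The share was 27.3% in TUBA1B, 12.2% in TUBA1A, 8.80% in TUBA1C and 3.42% in TUBB, and 1.19% or less in TUBB4B, TUBA4A and TUBB6. For TUBB3 it was 88.9%, all of it with the readthrough gene ENSG00000198211, which spans MC1R and TUBB3. Of these 1461 windows, 60 also occur in TUBB2A and 60 in TUBB2B. The readthrough identifier was at 0.72 TPM or less, with a median of 0 in each of the 4 groups, and was listed at 0 in every Nrf2 siRNA sample. Adding it to TUBB3 gave group means of 40.9 TPM in scramble, 64.5 with Pink1 siRNA, 29.3 with Nrf2 siRNA and 49.0 with both. Levels of TUBB2A and TUBB2B, and of TUBA1A, TUBA1B and TUBA1C, remain uncertain to the extent that reads were split among them. TUBA1B also has an antisense neighbour, TUBA1B-AS1, at 252 to 1202 TPM, and the sources used here do not say whether the counting used strand.

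**Figure D1:**
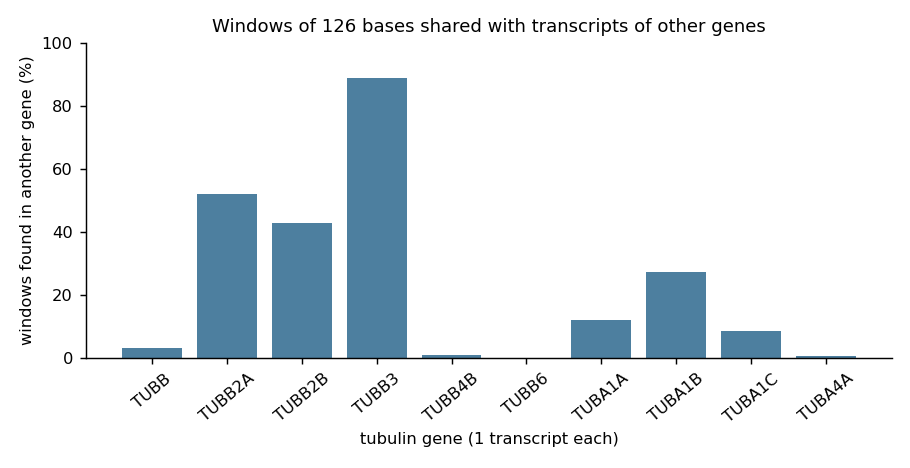
Share of 126-base windows (vertical axis, %) in one transcript of each tubulin gene (horizontal axis) that also occur in GENCODE 29 transcripts of another gene. TUBB3 is highest at 88.9%, followed by TUBB2A at 52.0% and TUBB2B at 42.7%, and TUBB6 shares none.

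ARPE-19 cells made most of their tubulin mRNA from 6 genes. In scramble, TUBA1B stood at 1431 ± 81.8 TPM, TUBB at 837 ± 34.8, TUBA1A at 597 ± 52.1, TUBB4B at 362 ± 18.0, TUBA1C at 345 ± 13.9 and TUBB6 at 293 ± 3.85 (SD, n = 3). TUBB2A followed at 59.1 ± 1.29 TPM, TUBA4A at 43.6 ± 0.367, TUBB3 at 40.8 ± 3.83 and TUBB2B at 3.48 ± 0.948. Ranked among all identifiers by mean scramble TPM, TUBA1B was number 56, TUBB number 114, TUBB3 number 2587 and TUBB2B number 10779. In this order the replicates of TUBB4B overlapped those of TUBA1C, and those of TUBA4A overlapped those of TUBB3, while no other neighbours overlapped. All 10 genes passed the filter of a mean of 1 TPM over the 12 samples, as did 13810 identifiers in all, and together they made up 0.401% ± 0.00619 of all TPM in scramble.

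As a ratio of group means, TUBB3 differed most of the 10 genes between the single siRNA groups, although TUBA1A, TUBA1B, TUBA1C, TUBB and TUBB4B differed by more TPM. It was high with Pink1 siRNA and low with Nrf2 siRNA. Its levels in the 3 replicates were 45.0, 37.5 and 39.8 TPM in scramble and 51.1, 64.6 and 77.4 TPM with Pink1 siRNA. With Nrf2 siRNA they were 33.1, 28.3 and 26.5 TPM, and with both siRNAs 52.1, 49.1 and 45.0 TPM. All Pink1 siRNA samples lay above all scramble samples and all Nrf2 siRNA samples lay below them. The double siRNA samples lay above all Nrf2 siRNA samples and overlapped the Pink1 siRNA samples, and their lowest, replicate 3, was level with the highest scramble sample at 45.0 TPM.

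The group means were 40.8 ± 3.83 TPM in scramble, 64.4 ± 13.1 with Pink1 siRNA, 29.3 ± 3.39 with Nrf2 siRNA and 48.7 ± 3.59 with both (SD, n = 3). As a ratio of means, TUBB3 was 1.58 times scramble with Pink1 siRNA, 0.719 times with Nrf2 siRNA and 1.20 times with both, and Pink1 siRNA was 2.20 times Nrf2 siRNA. On the log2(TPM + 1) scale, which understates the change of low genes, the difference from scramble was 0.63 (SE 0.16) with Pink1 siRNA, -0.46 (SE 0.16) with Nrf2 siRNA and 0.25 (SE 0.16) with both. The double siRNA group therefore lay between the single ones: it was 0.38 lower than Pink1 siRNA and 0.72 higher than Nrf2 siRNA on that scale. The sum of the single-siRNA differences missed the double-siRNA difference by 0.09 (SE 0.23). Technical pairs of TUBB3 had a log2 SD of 0.085, and biological replicates within a group 0.19.

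TUBB3 also differed as a part of the β-tubulin pool, a measure that does not depend on the total to which TPM is scaled. It was 2.56% ± 0.318 of the summed TPM of the 6 β-tubulin genes in scramble, 3.41% ± 0.363 with Pink1 siRNA, 1.80% ± 0.228 with Nrf2 siRNA and 2.69% ± 0.558 with both (SD, n = 3). By this measure too, Pink1 siRNA samples were all above and Nrf2 siRNA samples all below scramble, and the double siRNA samples overlapped scramble. With ENSG00000226958 removed and TPM rescaled, the means were 62.2 ± 5.69, 92.6 ± 12.1, 44.1 ± 4.36 and 70.6 ± 17.9 TPM in the same order. Double siRNA replicate 3, at 53.3 TPM, was then below all scramble samples (58.8 to 68.8 TPM) and replicate 1, at 88.9 TPM, above all of them, so the position of the double siRNA group against scramble rests on the scaling.

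**Figure D2:**
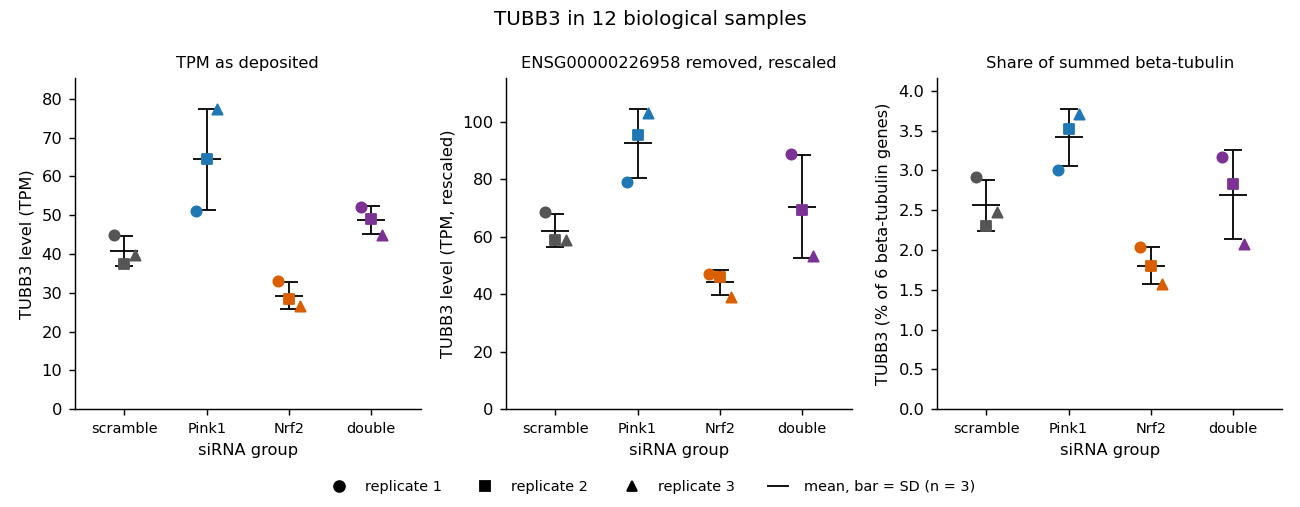
TUBB3 in 12 biological samples by siRNA group (horizontal axis): deposited TPM, TPM after removal of ENSG00000226958, and percent of the summed β-tubulin TPM (vertical axes). Points are biological replicates and bars the mean with SD (n = 3); Pink1 siRNA samples lie above scramble and Nrf2 siRNA samples below in all 3 panels, and double siRNA samples spread across scramble after removal.

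TUBB3 has start sites in RefSeq (GRCh38.p14) whose 250 upstream bases differ in what they hold, and the upstream one is shown because NRF2 binds the antioxidant response element, searched as TGACNNNGC on both strands. The window at chr16:89921675-89921924, plus strand, holds that motif on its minus strand 122 bases before the start, in capitals:
TUBB3 upstream start: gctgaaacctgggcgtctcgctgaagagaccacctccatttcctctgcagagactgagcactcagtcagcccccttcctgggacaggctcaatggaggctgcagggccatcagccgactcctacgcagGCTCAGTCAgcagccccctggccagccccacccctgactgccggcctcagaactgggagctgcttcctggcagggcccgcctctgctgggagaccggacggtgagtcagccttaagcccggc
The other TUBB3 window, at chr16:89923092-89923341, holds no match, and neither do the windows of the other 9 genes, so 1 of 15 windows matched. Of 35116 RefSeq windows of 250 bases, 10.9% hold the motif. The AP-1 motif TGANTCA, which does not overlap that match, also occurs once, in the same TUBB3 window 21 bases before the start, and is held by 6.57% of all windows. These are matches of letters, and nothing here measured binding.

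Across the 10 genes, limma (log2(TPM + 1), 13810 genes, Benjamini-Hochberg adjustment over all of them, called at an adjusted p under 0.05) called none for Pink1 siRNA against scramble, where 0.471% of all genes were called. It called none for Nrf2 siRNA against scramble (0.333% of all genes) and none for double siRNA against scramble (0.753%). It also called none for double against Pink1 siRNA (0.0434%), none for double against Nrf2 siRNA (0.0145%), and none for the interaction of the siRNAs (0%). For Pink1 siRNA against Nrf2 siRNA it called 1, TUBB3, beside 0.992% of all genes; since TUBB3 was picked on its levels, nothing is read from that call, and without Nrf2 siRNA replicate 3 the count was 0. At an unadjusted p under 0.05, limma gave 2 of the 10 for Pink1 siRNA against scramble (12.2% of all genes), 4 for Nrf2 siRNA (12.2%) and 3 for double siRNA (14.2%). That count was 2 for double against Pink1 siRNA (5.80%), 2 for double against Nrf2 siRNA (6.95%), 4 for Pink1 against Nrf2 siRNA (11.2%) and 0 for the interaction (5.45%). TUBB3, which was picked on its levels, is among these except for double siRNA against scramble; over the other 9 genes the counts were 1, 3 and 3 against scramble, then 1, 1 and 3. Nothing is read from these counts.

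Counted by whether the 3 samples of one group lay wholly above or below those of the other, 6 of the 10 genes stood apart for Pink1 siRNA against scramble, all higher: TUBB, TUBB3, TUBB4B, TUBA1A, TUBA1B and TUBA1C. Among all genes 25.0% stood apart in that comparison. For Nrf2 siRNA against scramble 4 stood apart (22.9% of all genes), TUBB6 and TUBA4A higher and TUBB2A and TUBB3 lower. For double siRNA against scramble 5 stood apart (18.1%), with TUBB3, TUBB6, TUBA1A and TUBA4A higher and TUBB2A lower, TUBB3 only because its lowest double siRNA value exceeded the highest scramble value beyond the digits printed here. For Pink1 against Nrf2 siRNA 6 stood apart (18.8%), TUBA4A lower and the other 5 higher. TUBB3 is in each of these counts, and without it they were 5, 3, 4 and 5 of 9 genes. The split also depends on the scale. With ENSG00000226958 removed, Pink1 siRNA against scramble gave 7 higher and 1 lower (TUBB2A), and as shares of the α- or β-tubulin sum it gave 1 higher (TUBB3) and 3 lower (TUBB2A, TUBB2B and TUBA4A). For double siRNA against scramble, TUBB3 did not stand apart with that identifier removed, after median-of-ratios rescaling or as a share, and TUBB2A did not after median-of-ratios rescaling. The median log2 difference of the 10 genes was 0.24 with Pink1 siRNA (0.022 over all genes), 0.023 with Nrf2 siRNA (0.016) and 0.28 with both (0.0059). With quantile normalization these medians were 0.091, -0.015 and 0.058.

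**Figure D3:**
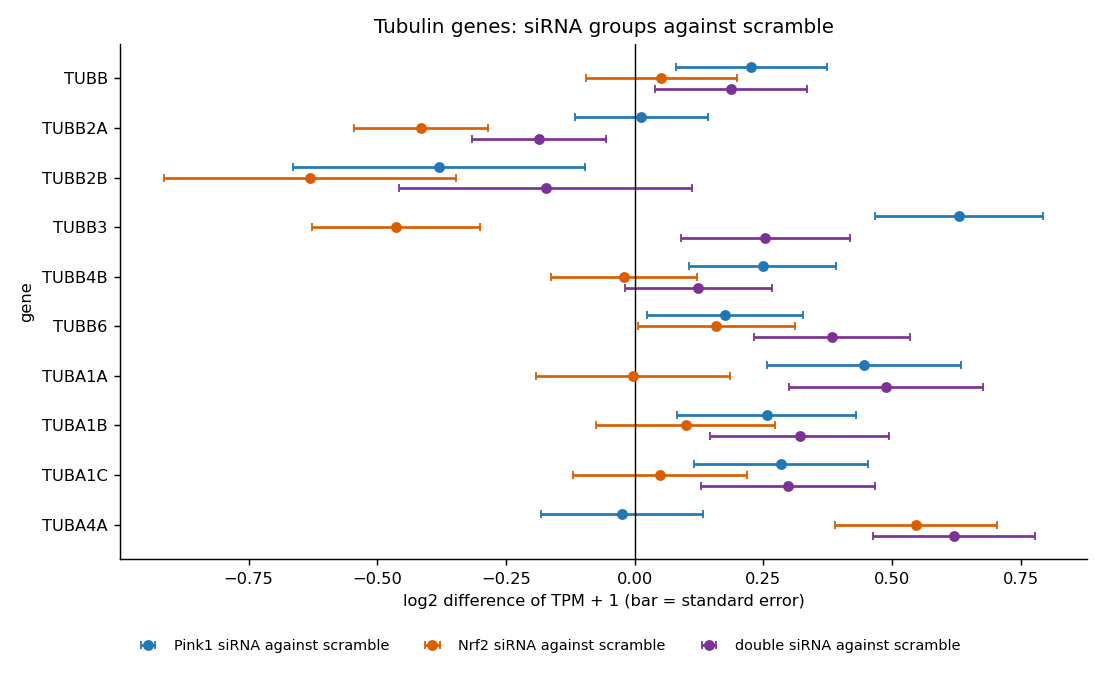
Differences from scramble on the log2(TPM + 1) scale (horizontal axis) for each tubulin gene (vertical axis) in the 3 siRNA groups; points are limma estimates and bars their standard errors. TUBB3 is at 0.63 with Pink1 siRNA and -0.46 with Nrf2 siRNA, and TUBA4A is near 0 with Pink1 siRNA and at 0.55 and 0.62 in the groups with Nrf2 siRNA.

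TUBA4A, the α-tubulin without an encoded tyrosine, was high in both groups that received Nrf2 siRNA. Its levels were 44.0, 43.3 and 43.4 TPM in scramble and 37.4, 47.4 and 44.4 TPM with Pink1 siRNA. They were 59.5, 75.9 and 58.4 TPM with Nrf2 siRNA and 58.2, 67.1 and 78.8 TPM with both. All 6 samples with Nrf2 siRNA, alone or combined, lay above all 6 without it. How many of all genes split in this way was not counted, so nothing is read from the split. The log2 difference from scramble was 0.55 (SE 0.16, limma adjusted p = 0.166) with Nrf2 siRNA, 0.62 (SE 0.16, limma adjusted p = 0.0980) with both and -0.02 (SE 0.16) with Pink1 siRNA, so none passed the threshold. Removing ENSG00000226958 left the pattern in place: 64.2 to 68.1 TPM in scramble, 57.9 to 70.0 with Pink1 siRNA, 84.8 to 124 with Nrf2 siRNA and 93.3 to 99.2 with both. For Pink1 against Nrf2 siRNA, TUBA4A differed by -0.57 (SE 0.16, limma adjusted p = 0.122) as deposited and by -0.63 (SE 0.14, limma adjusted p = 0.0404) with that identifier removed, and adjusted p ran from 0.0375 to 0.389 over all the settings tried. As a share of the summed α-tubulin TPM, TUBA4A was 1.80% ± 0.0351 in scramble, 1.44% ± 0.105 with Pink1 siRNA, 2.54% ± 0.505 with Nrf2 siRNA and 2.17% ± 0.180 with both (SD, n = 3).

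TUBB2A, a minor β-tubulin in these cells, was lowest with Nrf2 siRNA. It was at 58.2, 58.4 and 60.5 TPM in scramble, 54.2, 58.6 and 66.7 with Pink1 siRNA, 45.3, 39.5 and 47.6 with Nrf2 siRNA and 51.9, 49.7 and 53.8 with both. The Nrf2 siRNA samples lay below the samples of all other groups, with a log2 difference from scramble of -0.42 (SE 0.13, limma adjusted p = 0.205) that did not pass. With ENSG00000226958 removed, the Nrf2 siRNA samples (64.4 to 70.3 TPM) still lay below scramble (89.0 to 91.7 TPM) and overlapped double siRNA. Its near-copy TUBB2B stayed between 1.34 and 4.44 TPM in all 12 samples and its groups overlapped, with a log2 difference of -0.63 (SE 0.28, limma adjusted p = 0.394) for Nrf2 siRNA. Their sum depends less on how reads were split between them. It still does in part, because TPM is per length and their transcripts used here have 1595 and 2020 bases. The sum was 62.5 ± 0.741 TPM in scramble, 62.3 ± 6.93 with Pink1 siRNA, 46.1 ± 4.52 with Nrf2 siRNA and 54.8 ± 3.09 with both (SD, n = 3). TUBB2A with Nrf2 siRNA was thus low beside TUBB3 in the same samples, while TUBB and TUBB4B were not: their log2 differences there were 0.05 (SE 0.15) and -0.02 (SE 0.14), and both change sign under some of the other settings.

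**Figure D4:**
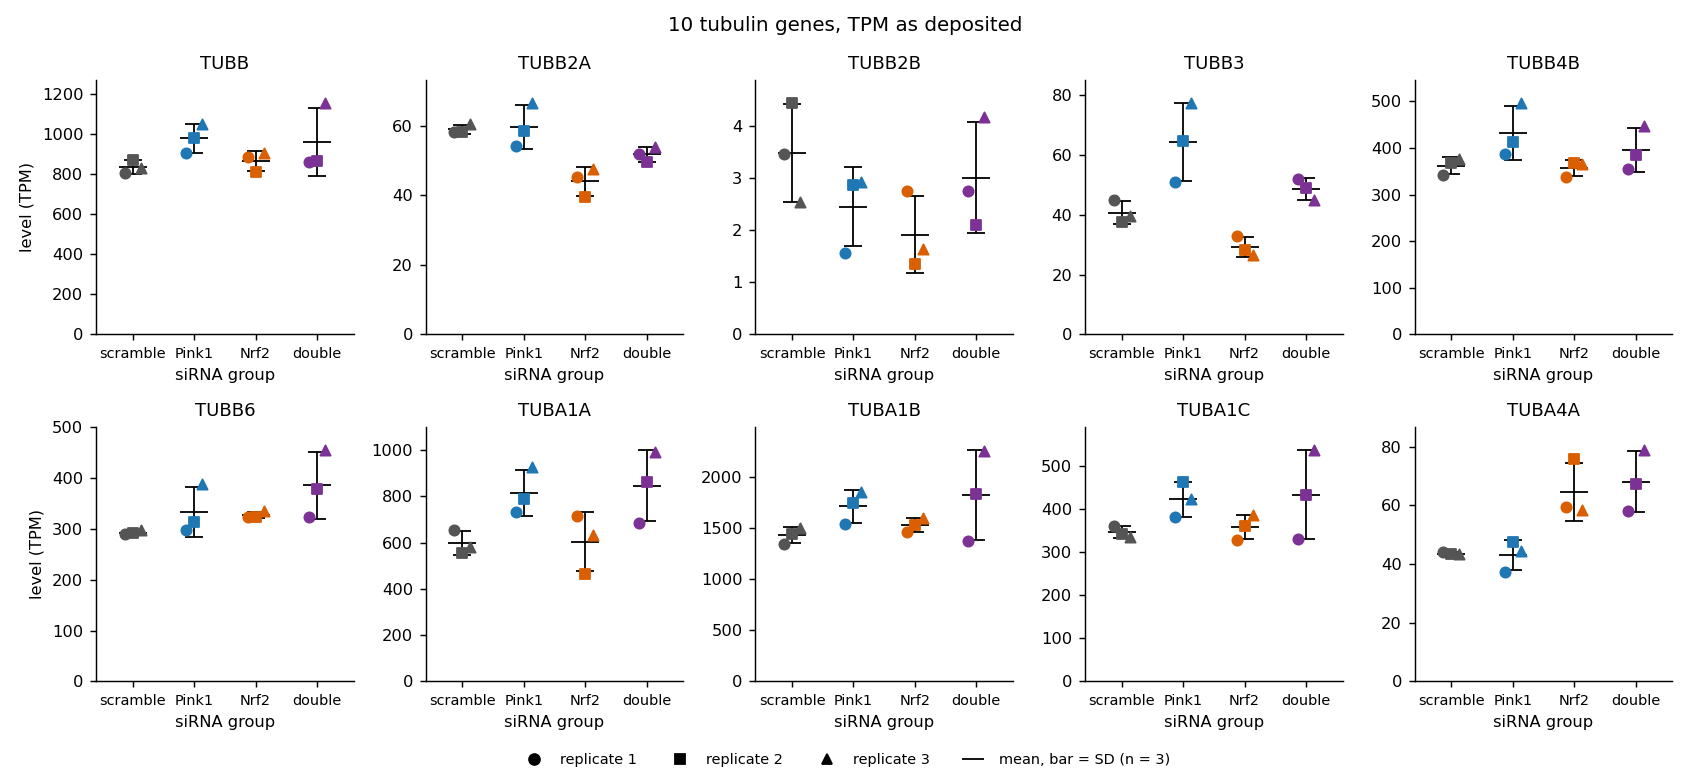
Deposited TPM (vertical axes, each from 0) of the 10 tubulin genes in the 4 siRNA groups (horizontal axes); points are biological replicates and bars the mean with SD (n = 3). TUBA4A is at 58.2 TPM or more in all samples with Nrf2 siRNA and at 47.4 TPM or less in all others, and in the abundant α-tubulins double siRNA replicate 3 is the highest sample.

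The abundant α-tubulins were higher with Pink1 siRNA, but no difference passed the test. TUBA1A was at 656, 556 and 580 TPM in scramble, 733, 789 and 926 with Pink1 siRNA, 713, 465 and 633 with Nrf2 siRNA and 683, 864 and 991 with both. Its log2 difference from scramble was 0.45 (SE 0.19, limma adjusted p = 0.358) with Pink1 siRNA and 0.49 (SE 0.19, limma adjusted p = 0.264) with both. TUBA1B, the most abundant tubulin mRNA, was at 1343, 1446 and 1505 TPM in scramble, 1541, 1743 and 1855 with Pink1 siRNA, 1465, 1533 and 1599 with Nrf2 siRNA and 1375, 1834 and 2258 with both. In both genes the Pink1 siRNA samples lay above scramble, and the Nrf2 siRNA samples overlapped it. TUBA1C ran from 334 to 361 TPM in scramble and from 381 to 462 with Pink1 siRNA. The sum of TUBA1A, TUBA1B and TUBA1C was 2374 ± 39.7 TPM in scramble, 2951 ± 277 with Pink1 siRNA, 2494 ± 129 with Nrf2 siRNA and 3101 ± 699 with both (SD, n = 3).

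Among the abundant β-tubulins, TUBB was at 805, 874 and 831 TPM in scramble, 908, 981 and 1052 with Pink1 siRNA, 886, 812 and 906 with Nrf2 siRNA and 861, 866 and 1157 with both. TUBB4B ran from 342 to 376 TPM in scramble and from 386 to 497 with Pink1 siRNA. TUBB6, an isotype found broadly outside neurons, differed in pattern: it was at 290, 291 and 297 TPM in scramble, 297, 314 and 389 with Pink1 siRNA, 324, 323 and 335 with Nrf2 siRNA and 323, 379 and 455 with both. Its double siRNA samples all lay above scramble, with a log2 difference of 0.38 (SE 0.15, limma adjusted p = 0.274). Its share of the β-tubulin sum was 18.4% ± 0.507 in scramble, 17.7% ± 0.803 with Pink1 siRNA, 20.1% ± 0.382 with Nrf2 siRNA and 20.9% ± 1.13 with both (SD, n = 3).

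In the Pink1 and double siRNA groups, the sum of all 10 genes was higher in samples where ENSG00000226958 took a smaller share. The sum was 4012 ± 61.8 TPM in scramble, 4866 ± 471 with Pink1 siRNA, 4186 ± 176 with Nrf2 siRNA and 5016 ± 970 with both (SD, n = 3). The highest sum, 6027 TPM, was in double siRNA replicate 3, where that identifier took 15.5% of TPM, and the lowest in the double siRNA group, 4092 TPM, was in replicate 1, where it took 41.4%. With the identifier removed the double siRNA samples drew together, at 6978 to 7135 TPM, and Pink1 siRNA samples were at 6804 to 7208 TPM. Both groups then lay above scramble (6021 to 6316 TPM) and above Nrf2 siRNA (5981 to 6524 TPM). The ratio of summed α- to summed β-tubulin TPM, which the scaling cannot change, was 1.52 ± 0.0495 in scramble, 1.60 ± 0.0512 with Pink1 siRNA, 1.57 ± 0.0208 with Nrf2 siRNA and 1.71 ± 0.192 with both (SD, n = 3).

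**Figure D5:**
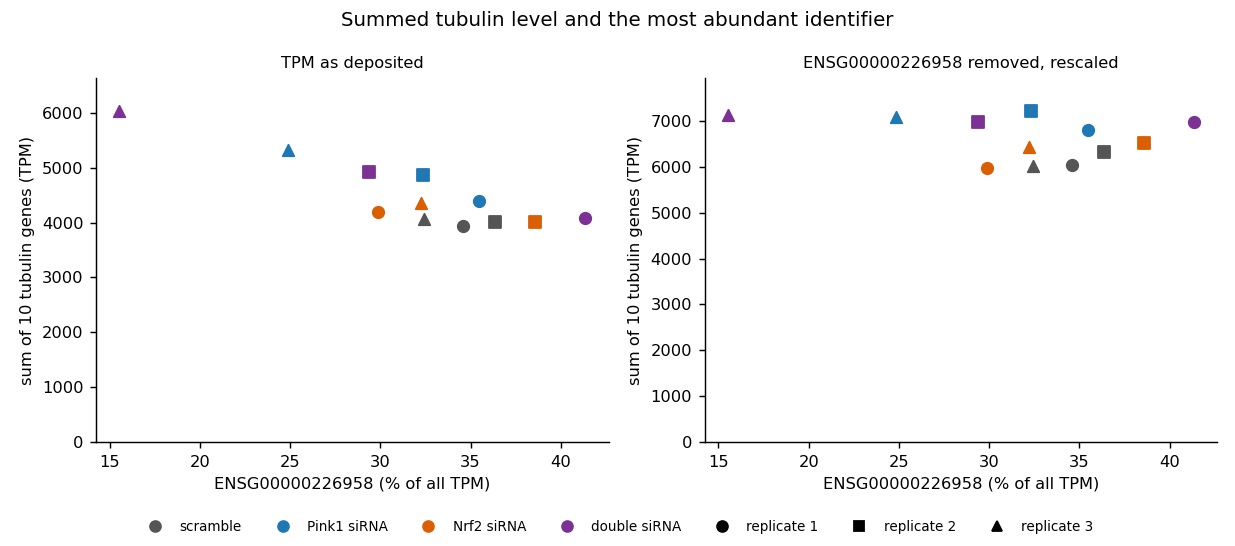
Summed TPM of the 10 tubulin genes (vertical axis) against the share of all TPM taken by ENSG00000226958 (horizontal axis, %) in 12 samples, as deposited (left) and with that identifier removed (right). Colours are siRNA groups and symbols biological replicates; double siRNA samples span 4092 to 6027 TPM on the left and 6978 to 7135 TPM on the right.

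Other genes of tubulin biology were read from 6 lists. With limma, no gene of those lists was called in any of the 7 comparisons: 5 tested genes of other tubulins, 20 of tubulin folding, 4 of tubulin mRNA autoregulation, 15 of tubulin modification, 23 of microtubule-associated proteins and 10 of the γ-tubulin ring complex that nucleates microtubules. At an unadjusted p under 0.05 the counts in that order were 0, 3, 0, 1, 3 and 1 for Pink1 siRNA against scramble, and 1, 1, 0, 0, 1 and 1 for Nrf2 siRNA against scramble, where 12.2% of all genes did so in either comparison. TUBG1, the γ-tubulin of that complex, had a log2 difference from scramble of 0.27 (SE 0.16) with Pink1 siRNA and -0.09 (SE 0.16) with Nrf2 siRNA. TUBB4A, a β-tubulin best known from brain, was at 10.3 to 21.3 TPM and differed by 0.33 (SE 0.18) and -0.28 (SE 0.18). CCT3 and CCT7, subunits of the chaperonin that folds tubulin, differed by 0.11 (SE 0.15) and 0.19 (SE 0.16) with Pink1 siRNA and by -0.07 (SE 0.15) and -0.07 (SE 0.16) with Nrf2 siRNA. Over the 20 folding genes, 9 had a difference above 0 with Pink1 siRNA and 4 with Nrf2 siRNA, and the medians were -0.016 and -0.15, beside 0.022 and 0.016 over all genes. CNOT1, the scaffold of CCR4-NOT, differed by 0.33 (SE 0.19) with Pink1 siRNA and by 0.30 (SE 0.19) with Nrf2 siRNA, and CNOT11 by -0.31 (SE 0.17) and -0.24 (SE 0.17). The remaining genes of that list, named after their values were seen, were TTC5 at -0.11 (SE 0.13) and -0.08 (SE 0.13) and SCAPER at -0.43 (SE 0.22) and 0.21 (SE 0.22). Of the 4 genes, 1 had a difference above 0 with Pink1 siRNA and 2 with Nrf2 siRNA, with medians of -0.21 and 0.064. The part of autoregulation in the tubulin levels was not tested. TTL, which adds the C-terminal tyrosine to α-tubulin, differed by -0.03 (SE 0.15) and -0.08 (SE 0.15), and AGBL5, a deglutamylase, by 0.24 (SE 0.16) and 0.05 (SE 0.16). MAP1B, which stabilises microtubules, differed by 0.58 (SE 0.18, limma adjusted p = 0.216) with Pink1 siRNA, and STMN1, which binds free dimers, by -0.20 (SE 0.22). MZT2B and MZT2A, small subunits of the γ-tubulin ring complex, differed by 0.19 (SE 0.19) and 0.41 (SE 0.21) with Pink1 siRNA.

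Among 17 dynein, dynactin and kinesin genes, 1 was called, for Nrf2 siRNA against scramble, where 0.333% of all genes were called. That gene, the dynactin subunit DCTN5, fell by 0.93 on the log2 scale (SE 0.17, limma adjusted p = 0.0352), from 24.6 ± 1.96 to 12.5 ± 1.80 TPM (SD, n = 3). With both siRNAs it was at 14.3 ± 2.83 TPM, a log2 difference of -0.76 (SE 0.17, limma adjusted p = 0.0573). Of 6 tested neighbours of TUBB3 on its chromosome limma called none, with 1 at an unadjusted p under 0.05 for Pink1 siRNA and 1 for Nrf2 siRNA (12.2% of all genes in either). TCF25 differed from scramble by 0.34 (SE 0.15) with Pink1 siRNA and 0.39 (SE 0.15) with Nrf2 siRNA, and DEF8 by -0.10 (SE 0.17) and -0.05 (SE 0.17). MC1R, the gene just upstream, was under 1 TPM in every sample.

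Since TUBB3 is a marker of neurons, 15 neuronal markers were read beside it, of which 9 were not found by symbol in the expression table. RBFOX3, SYP and ELAVL4, which mark differentiated neurons, were under 1 TPM in every sample. MAPT reached 1 TPM in at least 1 sample, but its mean did not. UCHL1, a deubiquitinase also made in many cultured lines, was at 589 ± 42.7 TPM in scramble and 490 ± 7.54 with Nrf2 siRNA, and the dendritic protein gene MAP2 at 15.2 ± 1.08 and 17.6 ± 1.90 TPM (SD, n = 3). On the log2 scale MAP2 differed from scramble by 0.32 (SE 0.18) with Pink1 siRNA and 0.20 (SE 0.18) with Nrf2 siRNA. Of the 2 neuronal markers tested, only 1, MAP2, was above 0 in either comparison. The summed level of the 6 measured markers, nearly all UCHL1, ran from 574 to 655 TPM in scramble, 556 to 597 with Pink1 siRNA, 501 to 513 with Nrf2 siRNA and 408 to 740 with both. Their part in the TUBB3 pattern was not tested. PDE6B of photoreceptors, MBP of glia and KDR of endothelium were not called in any comparison.

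Of 11 RPE markers tested, the melanin enzyme gene TYRP1 rose in all 3 siRNA groups against scramble, and TYR was the only other one called. Both were called in each group, beside 0.471% of all genes with Pink1 siRNA, 0.333% with Nrf2 siRNA and 0.753% with both. Of the 11, 7 had a difference above 0 in each of these comparisons, and the others did not. TYRP1 went from 9.92 ± 1.70 TPM in scramble to 45.5 ± 6.70 with Pink1 siRNA, 23.2 ± 1.84 with Nrf2 siRNA and 26.6 ± 7.11 with both (SD, n = 3), with limma adjusted p of 0.0248 or less in each. TYR was at 0.402 ± 0.183 TPM in scramble and 3.72 ± 0.354 with Pink1 siRNA (SD, n = 3); it passed the filter of 1 TPM only through the siRNA groups, so nothing is read from its calls. The 10 proliferation genes, read because spindles need tubulin, summed to 712 to 801 TPM in scramble, 739 to 801 with Pink1 siRNA, 610 to 678 with Nrf2 siRNA and 499 to 919 with both. Limma called none, with 1 of the 10 at an unadjusted p under 0.05 for Pink1 siRNA and 3 for Nrf2 siRNA against scramble (12.2% of all genes in either); PCNA, the replication clamp, differed from scramble by -0.14 (SE 0.21) with Nrf2 siRNA and the mitotic cyclin CCNB1 by -0.35 (SE 0.22). The Nrf2 siRNA group was thus lower in this sum, as in TUBB3, but the double siRNA group was not alike in both. Of the 10 genes, 2 had a difference from scramble above 0 with Nrf2 siRNA, 2 with both and 7 with Pink1 siRNA. Their median log2 differences were -0.20, -0.18 and 0.050, while mean TUBB3 was 48.7 TPM with both against 40.8 in scramble. The part of proliferation in the TUBB3 levels was not tested.

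The genes whose levels most resembled TUBB3 were searched among 9478 genes with a symbol and a mean level of 5 TPM or more, by Pearson's r of log2(TPM + 1) over the 12 samples, which share 4 group means, so r is a description. The highest were CARNS1 (r = 0.94), NT5DC2 (0.93), UNC5B (0.93), PP7080 (0.92) and TTC7B (0.91). UNC5B, a netrin receptor, was at 4.66 ± 0.902 TPM in scramble, 10.5 ± 2.24 with Pink1 siRNA, 2.72 ± 0.968 with Nrf2 siRNA and 5.58 ± 0.927 with both (SD, n = 3). CARNS1, the carnosine synthase, was at 6.01 ± 0.729, 11.3 ± 2.17, 4.75 ± 0.926 and 7.21 ± 0.370 TPM in that order. The most opposed were DICER1 (r = -0.93), IL7R (-0.93), IFI6 (-0.92), NIPAL3 (-0.91) and DDX60L (-0.91). IFI6, an interferon-induced gene, was at 898 ± 564 TPM in scramble, 219 ± 79.4 with Pink1 siRNA, 2336 ± 846 with Nrf2 siRNA and 571 ± 287 with both (SD, n = 3). DICER1, which cuts microRNA precursors, was at 17.8 ± 1.14, 12.7 ± 2.39, 25.3 ± 3.50 and 17.4 ± 3.52 TPM. Among the other tubulins of the set, the highest r to TUBB3 were 0.73 for TUBB2A, 0.68 for TUBA1A and 0.65 for TUBB4B, and the lowest was -0.40 for TUBA4A. They are not set against the genes above, which were picked as the extremes of 9478.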

How the data were processed

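Sequencing was paired-end after poly(A) selection with a stranded kit, per the labels' protocols. The authors deposited 1 table of TPM for 24 samples; STAR, RSEM, edgeR and the builds GRCh37 and hg19 are named in the submitters' processing notes, without versions. Symbols came from a GENCODE name table that held 22789 of 24053 identifiers, 19325 of them with a symbol. Here technical pairs were averaged and limma 3.58.1 (R 4.3.3, trend, 8 residual and 4.93 prior degrees of freedom, two-sided) was fitted to log2(TPM + 1) of the 12 samples for the 13810 genes whose mean reached 1 TPM, with one spread for the 4 groups. Alternatives were the pseudocount, the filter, the scaling, weights, a block, single technical replicates and left-out replicates. All members are named, and in other lists the called genes or the 2 most abundant. The members and lists were chosen with earlier results of these data known. Sequences are from RefSeq (GRCh38.p14) and GENCODE 29, not the files' build. Only the TUBB3 promoter windows carry coordinates, which are those of GRCh38.p14.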

Additional observations from a re-analysis of the deposited data

How the results depend on the processing

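Counts of called tubulin genes were 0 in each comparison except Pink1 siRNA against Nrf2 siRNA, where the count was 1. With median-of-ratios rescaling and with quantile normalization, double siRNA against scramble gave 1 (TUBA4A) and Pink1 against Nrf2 siRNA gave 2 (TUBB3 and TUBA4A), and the latter was also 2 with ENSG00000226958 removed. Over all genes, double siRNA against scramble then gave 333 and 295 calls, beside 104 of 13810 in the main fit. Pink1 against Nrf2 siRNA gave 296 and 342, and 313 with ENSG00000226958 removed, beside 137. With array weights, Pink1 siRNA against scramble gave 1 (TUBB3), Nrf2 siRNA against scramble 1 (TUBA4A), double siRNA against scramble 3 (TUBB6, TUBA1A and TUBA4A), double against Pink1 siRNA 1, double against Nrf2 siRNA 1 and Pink1 against Nrf2 siRNA 2. Over all genes the weights gave 666, 598 and 943 calls against scramble, beside 65, 46 and 104 without them. For the remaining comparisons in that order they gave 212, 71 and 731, beside 6, 2 and 137. The cause of the larger counts was not tested. TUBB3 was picked on its levels, so nothing is read from its calls. Leaving out 1 replicate at a time gave 0 to 1 for Pink1 against Nrf2 siRNA (0 without Nrf2 siRNA replicate 3, where the TUBB3 difference was 1.03 on the log2 scale) and 0 to 1 for double siRNA against scramble (TUBA4A without double siRNA replicate 1). Replicate numbers were not shown to pair samples: same-numbered samples deviated together with r from -0.085 to 0.113, and the replicate block gave the counts of the fit without it, 1 for Pink1 against Nrf2 siRNA and 0 elsewhere. No called difference changed sign. TUBB2B had no value at a minimum mean of 5 TPM. Sums over near-copies are given as levels and were not fitted. TPM keeps no depth, so the precision of low genes such as TUBB2B is known only from the spread between samples.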
